A study of Mus musculus with 6 samples.

Results

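The genes examined here make, break down and sense prostaglandins, the lipid mediators whose inducible synthesis starts with Ptgs2. They were taken as every probe set whose platform annotation gives 1 gene symbol, that symbol being 1 of 10 names: the synthases Ptgs1, Ptgs2, Ptges, Ptges2 and Ptges3, the breakdown enzymes Hpgd, Ptgr1 and Ptgr2, and the receptors Ptger2 and Ptger4. This gave 18 probe sets of 8 genes, out of 45037 probe sets tested and 18193 genes with a symbol of their own. Ptgs1 had no such probe set in the annotation used here. The 2 probe sets of Ptges3 also carry the symbol of its pseudogene Ptges3-ps and were therefore not counted. The genes were chosen by measured values of these same arrays, the differences between the groups seen in an earlier look at them. Their values in that comparison are therefore given as a description, without p-values.

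Whole back skin was taken on postnatal day 2.5 from 6 female littermates of a mixed FVB/N/C57BL/6 background, and the RNA of each mouse was hybridised to 1 expression array. In 3 mice, labelled K5cre-caNrf2 (tg/tg), a permanently active Nrf2 (caNrf2) is combined with Cre recombinase driven by K5, the keratin 5 promoter of basal keratinocytes. Nrf2 is a transcription factor that induces antioxidant and detoxifying enzymes. The other 3, labelled K5cre-wt (tg/wt), are the controls and by that label carry K5cre too. The sample descriptions also contain the word "weak", which the labels do not explain. The comparison asks how transcripts of neonatal skin differ when Nrf2 is always active in keratinocytes. Because whole skin was used, a higher or lower signal can come from a change per cell or from another number of cells of a type, and these cannot be told apart.

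Arachidonic acid released from membranes is turned by the cyclooxygenases into prostaglandin H2, with Ptgs1 (COX-1) present in most tissues and Ptgs2 (COX-2) induced by growth factors, cytokines and stress. Prostaglandin E synthases then make prostaglandin E2, which acts through receptors such as EP2 and EP4. The hydroxyprostaglandin dehydrogenase Hpgd starts its inactivation and the prostaglandin reductases Ptgr1 and Ptgr2 act on the resulting keto products. In skin, prostaglandin E2 is known for its part in inflammation, wound repair and the growth of keratinocytes.

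Of the 8 genes, Ptgs2 on its brighter probe set and Ptgr1 had the largest differences, at 2.10-fold and 1.76-fold, both higher in caNrf2 skin. Ptgs2 acts at the start of the pathway and Ptgr1 in the breakdown, as does Ptgr2. The fitted folds of the other genes lay between 0.915 and 1.18. The genes were chosen with this comparison known, so these values are a description. The sequences before the start sites of Ptgs2 and Ptgr1 are shown because these genes had the largest differences. Both come from RefSeq on GRCm38.p6, run 5′ to 3′ and end at the last base before the annotated start, or, for Ptgr1, before the outermost start of the gene. The Ptgs2 stretch is chr1:150099781-150100030 on the plus strand, and the Ptgr1 stretch is chr4:58987132-58987328 on the minus strand. Capitals mark a match to the palindrome TTGCGCAA, a sequence bound by C/EBP factors.
Ptgs2: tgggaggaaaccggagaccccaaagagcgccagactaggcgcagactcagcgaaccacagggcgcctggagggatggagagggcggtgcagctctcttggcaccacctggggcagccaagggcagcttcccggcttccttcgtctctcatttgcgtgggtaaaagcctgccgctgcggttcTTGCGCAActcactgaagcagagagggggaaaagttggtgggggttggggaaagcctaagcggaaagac
Ptgr1: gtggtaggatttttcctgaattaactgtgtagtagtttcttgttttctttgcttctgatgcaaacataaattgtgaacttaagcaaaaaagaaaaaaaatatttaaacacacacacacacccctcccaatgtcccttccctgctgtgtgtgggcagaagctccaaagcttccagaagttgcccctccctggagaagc

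A search on both strands covered 250 bases before and 50 bases after each annotated start. An annotated start need not be the outermost start of its gene. For Ptges and Abcc4 the bases before the starts searched lie within the annotated gene, and for Ptgr1 and Ptgr2 some of them do. The letters searched were the core of the antioxidant response element to which Nrf2 binds (TGACNNNGC), the core of the cyclic AMP response element (TGACG), the E-box CACGTG and the C/EBP palindrome TTGCGCAA. The palindrome lies 69 to 62 bases before the Ptgs2 start and occurs in 0.183% of 32841 such windows of the mouse genome. Just behind the annotated Ptgs2 start, at bases 14 to 18, the cyclic AMP core TGACG is present on the minus strand, here in capitals: caccactaCGTCAcgtggagt. It overlaps an E-box at bases 17 to 22. TGACG occurs in 20.8% and the E-box in 7.15% of all windows. The Nrf2 core TGACNNNGC, found in 12.4% of all windows, is not among the letters of the Ptgs2 or Ptgr1 window, and the Ptgr1 window holds none of the 4 motifs. The search also covered Ptges, Ptges2, Hpgd, Ptgr2, Ptger2 and Ptger4 and the related genes Cbr1 and Abcc4, described below. Of these, Ptges2 has an E-box. Abcc4 has the Nrf2 core at each of its 2 annotated starts and an E-box at 1 of them. The others have none of the 4 motifs. These are matches of letters and say nothing of binding.

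Ptgs2 was low in control skin and higher in each caNrf2 mouse, by an amount that differed between the mice. Its brighter probe set, 1417262_at, measured 28.59, 30.57 and 29.04 RMA intensity units (linear scale) on control arrays 1 to 3 and 85.89, 58.26 and 46.78 units on caNrf2 arrays 1 to 3. The groups do not overlap, and caNrf2 mouse 1 stands well above the other two. Against the control mean the 3 caNrf2 mice were at 2.92-fold, 1.98-fold and 1.59-fold. On the log2 scale the control mean was 4.88 ± 0.05 and the caNrf2 mean 5.95 ± 0.44 (SD, n = 3), a difference of 1.07 ± 0.17 (SE), or 2.10-fold with a 95% interval of 1.61 to 2.73. The spread among the caNrf2 mice was thus much wider than among the controls. The SE and interval come from the limma fit described below. That fit borrows variance from all probe sets and assumes the same spread in both groups. The interval can therefore be too narrow for this probe set. Even this probe set was not bright, as its mean of 5.41 over the 6 arrays lay below the median of all probe sets, 6.34 (log2).

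The second Ptgs2 probe set, 1417263_at, was dimmer. It measured 17, 16.38 and 13.99 units in control and 20.75, 19.04 and 18.6 units in caNrf2 skin. Again every caNrf2 mouse lay above every control mouse, but the difference was 0.31 ± 0.09 (log2, ± SE; 1.24-fold). Its control mean of 3.98 (log2) is close to 3.95, the highest value of any probe set of 3 Y-linked genes, which are silent in female mice. RMA compresses folds near that level, so the folds of the 2 probe sets are not compared.

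Ptgr1 reduces the keto products of prostaglandins and also inactivates leukotriene B4. It was bright and differed by almost the same amount in every caNrf2 mouse. Its only probe set, 1417777_at, measured 1985, 2041 and 1957 units in control and 3487, 3481 and 3578 units in caNrf2 skin. The difference was 0.82 ± 0.07 (log2, ± SE), or 1.76-fold with a 95% interval of 1.58 to 1.96. The SD among the caNrf2 mice was 0.02 for Ptgr1 and 0.44 for Ptgs2 (log2).

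**Figure D1:**
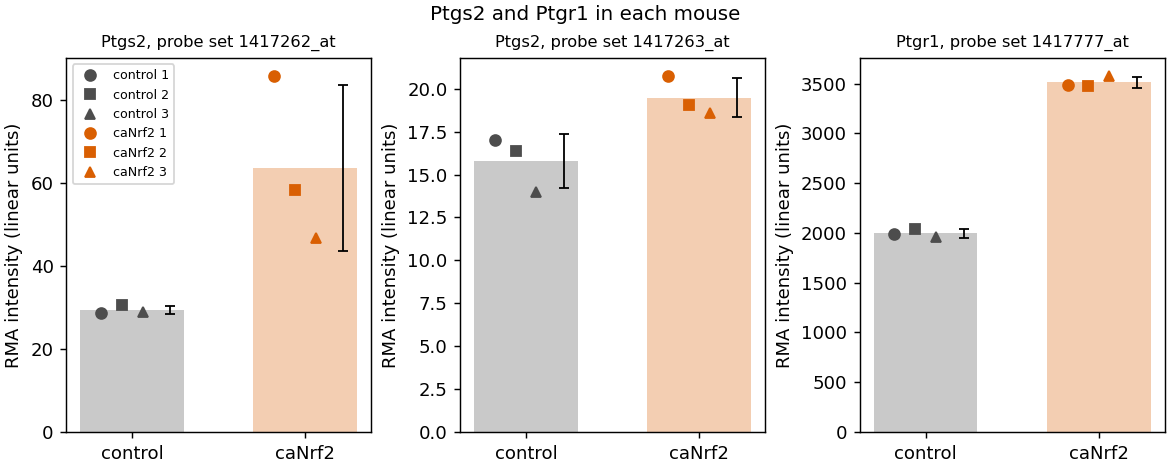
RMA intensity (linear units) of both Ptgs2 probe sets and of Ptgr1 in each mouse; bars are means, error bars SD (n = 3), and symbols the 3 mice of a group. In the brighter Ptgs2 probe set the caNrf2 mice range from 46.78 to 85.89 units, all above the controls, while for Ptgr1 they lie together between 3481 and 3578 units.

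Of all 45037 probe sets 0.24% passed a Benjamini-Hochberg adjusted p of 0.05 in limma, 102 of them higher (0.226%) and 6 lower (0.0133%) with caNrf2. Among the 18 probe sets of the prostaglandin genes, 2 passed that threshold, 1417262_at of Ptgs2 and 1417777_at of Ptgr1, both higher. Since the genes were chosen with this comparison known, nothing is read from this count. The median difference was 0.05 over the 18 probe sets and 0.00 over all probe sets (log2). The groups did not overlap for 4 of the 18, 3 of them higher and 1 lower, and for 14.2% of all probe sets, 6.9% higher and 7.28% lower. Ptgr1 passed under every alternative setting tried. Ptgs2 no longer passed when control array 1, 2 or 3 or caNrf2 array 2 was left out, although its difference then stayed between 1.05 and 1.11. It was 0.83 without caNrf2 array 1 and 1.27 without caNrf2 array 3, and passed in both cases.

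**Figure D2:**
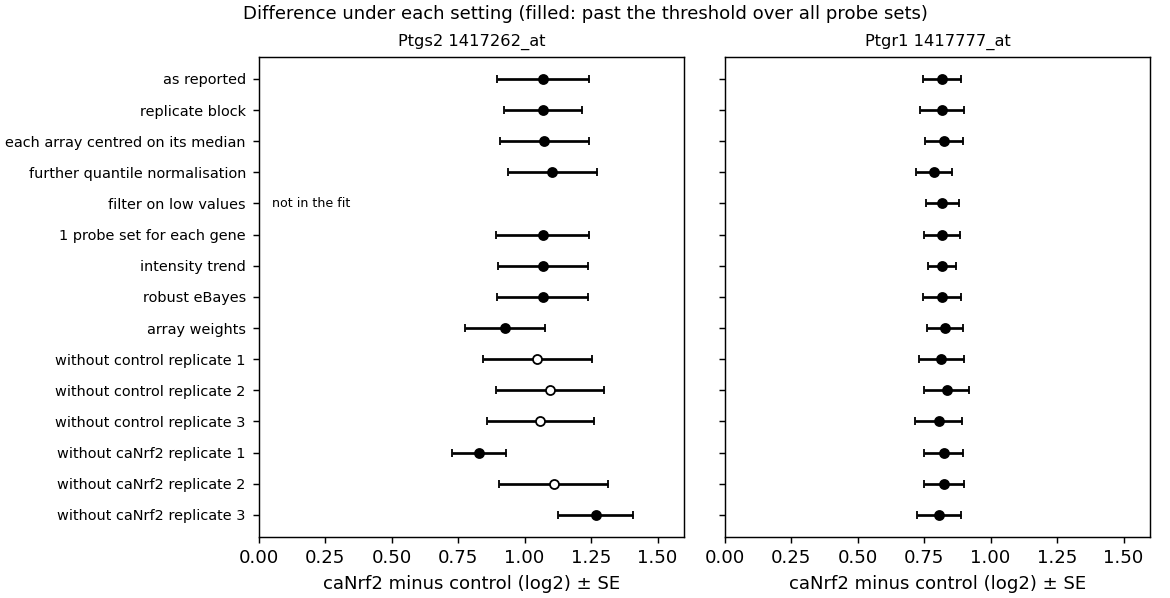
Difference between caNrf2 and control (log2) with its SE for Ptgs2 and Ptgr1 under each setting; filled circles are past the threshold over all probe sets. Ptgs2 ranges from 0.83 to 1.27 and has 4 open circles, and Ptgr1 ranges from 0.79 to 0.83 with none; the filter on low values leaves Ptgs2 out of the fit.

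No synthase that acts after Ptgs2 passed the threshold. Ptges encodes the inducible microsomal prostaglandin E synthase that often works together with COX-2. Its brightest probe set, 1449450_at, measured 312.2, 294.2 and 302.4 units in control and 273.8, 304.4 and 297.8 units in caNrf2 skin, overlapping ranges with a difference of -0.05 ± 0.08 (log2, ± SE). A second probe set differed by -0.01. The third, 1439747_at, did not overlap, with 98.08 to 103.9 units in control and 93.67 to 96.05 units in caNrf2 skin, but differed by only -0.08 ± 0.07. For the 3 probe sets together the 95% intervals reached from -0.23 to 0.19 (log2).

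Ptges2, a membrane-associated prostaglandin E synthase, measured 351.6, 328.7 and 347.3 units in control and 316.5, 375.8 and 340.4 units in caNrf2 skin. Its difference of 0.00 ± 0.08 has a 95% interval from -0.18 to 0.19 (log2). Ptges3, a cochaperone also described as the cytosolic prostaglandin E synthase, is represented by the 2 probe sets it shares with its pseudogene. Probe set 1417998_at measured 3606, 4040 and 4244 units in control and 4496, 4310 and 4650 units in caNrf2 skin. Its groups do not overlap, but the difference of 0.18 ± 0.08 (log2) did not pass the threshold. The other probe set differed by 0.12 ± 0.08 with overlapping groups.

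Among the breakdown enzymes other than Ptgr1 no difference passed the threshold. Hpgd, which inactivates prostaglandin E2, measured 158.3, 183.5 and 190.1 units in control and 186.7, 188.7 and 211.8 units in caNrf2 skin on its brighter probe set, 1419905_s_at. The groups overlap, and the difference of 0.14 ± 0.09 has a 95% interval from -0.06 to 0.35 (log2). The dim second probe set differed by 0.06 ± 0.08.

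Ptgr2, the other reductase of keto prostaglandins, has 6 probe sets, of which 3 were higher and 3 lower in caNrf2 skin, by between -0.13 and 0.14 (log2). The brightest, 1433503_at, measured 329.5, 348 and 384.2 units in control and 367.1, 327 and 362.3 units in caNrf2 skin. All 6 had overlapping groups. Where Ptgr1 lay at 1.76-fold, the fitted folds of the 6 Ptgr2 probe sets lay between 0.915 and 1.10.

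No receptor passed the threshold. Ptger4 (EP4), which raises cyclic AMP, measured 941.8, 1027 and 912.4 units in control and 994.8, 910.7 and 848.3 units in caNrf2 skin on probe set 1424208_at, a difference of -0.07 ± 0.09 (log2). Its dimmer probe set differed by 0.06 ± 0.10. Ptger2 (EP2), coupled to the same signal, measured 16.64, 21.66 and 17.58 units in control and 18.76, 27.9 and 20 units in caNrf2 skin. These values overlap and lie near the level of silent genes, so the difference of 0.24 ± 0.15 (log2), with an interval from -0.08 to 0.57, says little about the receptor.

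**Figure D3:**
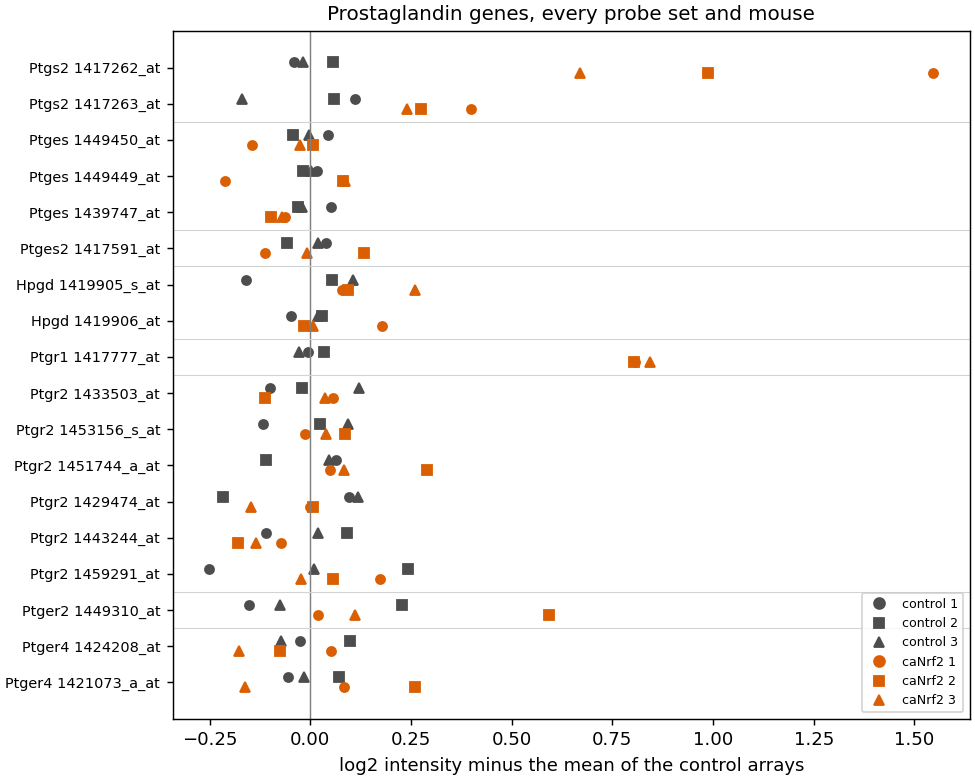
Every probe set of the 8 genes in every mouse, as log2 intensity minus the mean of the 3 control arrays; grey symbols are control and orange symbols caNrf2 mice. Only the brighter Ptgs2 probe set and Ptgr1 have all caNrf2 mice above 0.5, and mouse 1 is far to the right for Ptgs2 but not for Ptgr1.

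Further genes of arachidonic acid metabolism were listed by role from general knowledge, with earlier results of these arrays known, that of Abcc4 among them. Of 81 listed genes 75 were measured, by 125 probe sets, and of these 2 rose and 0 fell at the same threshold, where 0.24% of all probe sets passed. At an unadjusted p under 0.05 (limma) there were 22 of the 125, and 3990 of all 45037 probe sets. The groups did not overlap for 22 of the 125, and for 14.2% of all probe sets. The median difference was 0.02 (log2) over the 125. Since the lists were made with earlier results known, nothing is read from these counts.

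Abcc4, a transporter that carries prostaglandins out of cells among many other substrates, rose the most of these. It measured 162, 159.8 and 154 units in control and 488.4, 476.3 and 385.6 units in caNrf2 skin, a 2.82-fold difference (log2 1.50 ± 0.10 SE). Abcc4 was listed with this result known, so it is given as a description without a p-value. The uptake carrier Slco2a1 differed by at most 0.05 in either direction over its 4 probe sets, and Slco3a1 by at most 0.04 over its 3.

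Cbr1, a carbonyl reductase that can turn prostaglandin E2 into prostaglandin F2 alpha, rose 1.90-fold. It measured 553.1, 508.6 and 564.6 units in control and 1077, 1096 and 923 units in caNrf2 skin (log2 0.93 ± 0.09 SE, adjusted p = 0.000782, limma). It was the only called gene among 7 terminal synthases of other prostanoids. Under the alternative settings the Cbr1 difference stayed between 0.8727 and 1.0045 (log2), and that of Abcc4 between 1.4281 and 1.6049. Both lists were made with earlier results known, so these ranges and the adjusted p of Cbr1 are only a description.

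Ptgds, which makes prostaglandin D2, had the largest negative differences of that list and did not pass. Its brighter probe set, 1423859_a_at, measured 2276, 2551 and 2331 units in control and 1814, 1939 and 1569 units in caNrf2 skin, without overlap and at -0.43 ± 0.09 (log2 ± SE, adjusted p = 0.173, limma). The second probe set differed by -0.39 ± 0.11, again without overlap. With an intensity trend in the fit the brighter one passed (adjusted p = 0.0357). The thromboxane synthase Tbxas1 differed by -0.34 ± 0.11 (adjusted p = 0.388, limma) and the thromboxane receptor Tbxa2r by -0.23 ± 0.08 (adjusted p = 0.434, limma).

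No phospholipase A2 or lipase passed among 19 measured genes, with 12 probe sets higher and 20 lower and a median of -0.07 (log2). Pla2g4a, the cytosolic phospholipase A2 that supplies arachidonic acid to the cyclooxygenases, measured 479.9, 444.7 and 483.1 units in control and 594.9, 546.2 and 570.1 units in caNrf2 skin. Its groups do not overlap, but the difference of 0.28 ± 0.08 missed the threshold (adjusted p = 0.328, limma). Pla2g3 differed by 0.31 ± 0.09 (adjusted p = 0.347) and 1 of 3 Pla2g6 probe sets by -0.41 ± 0.11 (adjusted p = 0.335, limma).

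The 7 other prostanoid receptors held no called gene either, with a median of -0.02 (log2). Ptger3 differed by -0.28 ± 0.14 on its brighter probe set (adjusted p = 0.587, limma) and by 0.03 on the other, which lay near the level of silent genes. Ptgdr2, dim at 28.74 to 41.89 units over all mice, differed by -0.25 ± 0.12 (adjusted p = 0.592, limma). Of 14 lipoxygenase and leukotriene genes none passed, with a median of 0.01. Alox15, Alox12 and Cysltr1 had the smallest p-values there, at 0.23 ± 0.10, 0.19 ± 0.08 and -0.18 ± 0.08 (log2, adjusted p from 0.539 to 0.553, limma). Alox15 was dim at 33.32 to 45.6 units over all mice, with overlapping groups, and Cysltr1 at 44.53 to 55.09 units. The still dimmer second probe sets of Alox12 and Cysltr1 differed by 0.22 and -0.17, with overlapping groups.

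Of 10 cytochrome P450 and epoxide hydrolase genes none passed, with a median of 0.06. Ephx1, the microsomal epoxide hydrolase, differed by 0.39 ± 0.09 (adjusted p = 0.251, limma), with 548.8 to 622.3 units in control and 692.7 to 852.3 units in caNrf2 skin. Cyp4f39 differed by 0.30 ± 0.07 (adjusted p = 0.262, limma). The dim Cyp4f18 differed by 0.21 ± 0.09 on 1 probe set (adjusted p = 0.531, limma) and by 0.08 on the other.

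**Figure D4:**
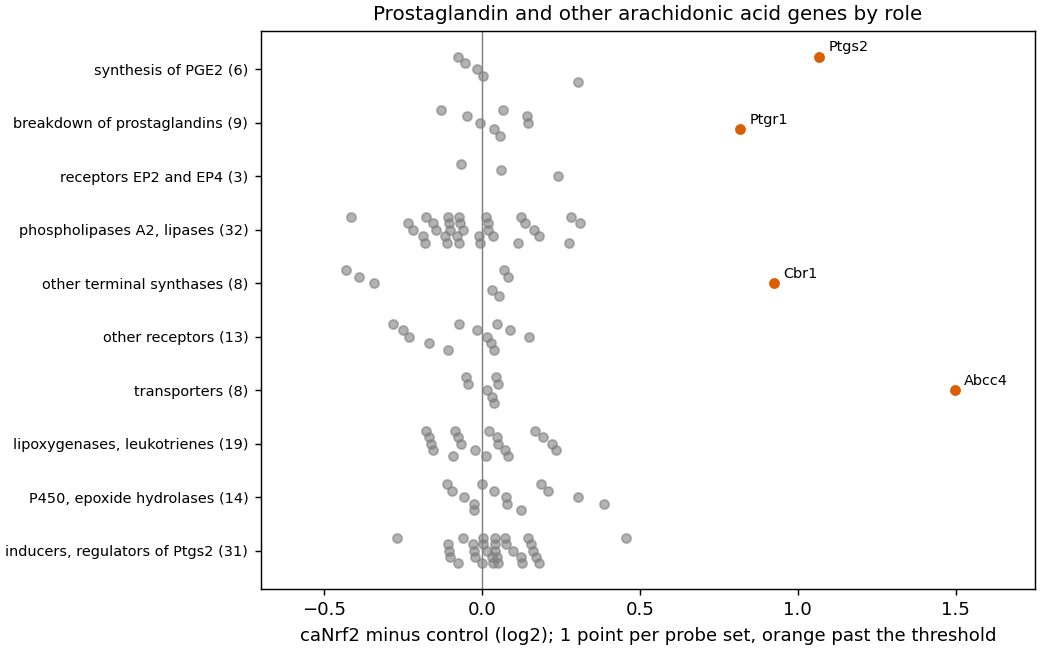
Difference between caNrf2 and control (log2) for every probe set of the prostaglandin genes and of 7 lists of related genes, 1 point each, with the number of probe sets in brackets. The 4 orange points, Ptgs2, Ptgr1, Cbr1 and Abcc4, are past the threshold over all probe sets and lie between 0.82 and 1.50, while the grey points lie between -0.43 and 0.46.

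Among 15 measured genes that induce or regulate Ptgs2 in other settings none passed, with 21 probe sets higher and 10 lower and a median of 0.04 (log2). Fos, an immediate early gene whose product binds DNA as part of AP-1, measured 1033, 819.4 and 847 units in control and 1605, 1189 and 971.8 units in caNrf2 skin. It was highest in caNrf2 mouse 1, as was Ptgs2, but its groups overlap and the difference of 0.46 ± 0.16 did not pass (adjusted p = 0.445, limma). Zfp36, which destabilises Ptgs2 mRNA, differed by 0.18 ± 0.07 (adjusted p = 0.524) and the dim Elavl1 probe set 1440464_at by -0.27 ± 0.09 (adjusted p = 0.421, limma), while brighter Elavl1 probe sets differed by 0.08 and 0.05. Interleukin 1 beta (Il1b), a classical inducer of Ptgs2, measured 50.65 to 52.67 units in control and 52.29 to 61.52 units in caNrf2 skin. Its groups overlap, and the difference of 0.16 ± 0.08 did not pass (adjusted p = 0.617, limma). The other listed cytokines Il1a, Il6 and Tnf differed by 0.16, 0.10 and -0.0006 (log2), with Il6 at the level of silent genes. The part of Fos and of these regulators in the difference of Ptgs2 was not tested.

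Markers of cells that could carry Ptgs2 were set beside it. The labelled tissue showed its defining markers, with Krt5 between 10940 and 11720 units and Col1a1 at 13560 to 14510 units on its brighter probe set. The 9 macrophage probe sets differed by -0.06 to 0.06 (log2), and their summed intensity was 5000 to 5266 units in control and 4761 to 5340 units in caNrf2 skin. All 6 neutrophil probe sets were lower, by 0.08 to 0.33, with sums of 339 to 434 and 298 to 367 units. Most of these sums came from S100a8, at 135.5 to 223.6 units over all mice, and S100a9, at 58.83 to 92 units. The groups overlap for both. Mpo, Elane and Cxcr2 were dim in every mouse at 13.79 to 32.47 units, as was Csf3r at 29.35 to 44.24 units. Mast cell sums overlapped, at 5730 to 6112 and 4624 to 6784 units. All 12 basal keratinocyte probe sets were higher by small amounts, between 0.0008 and 0.23, with sums of 40136 to 42133 and 40946 to 44001 units. None of these 4 lists held a called gene. Among the other 7 marker lists measured, that of the sebaceous gland held 1 called probe set, 1450956_at of the lipid desaturase Scd3. It measured 308.1, 259.4 and 242.9 units in control and 164.7, 174.8 and 126.2 units in caNrf2 skin (0.572-fold, adjusted p = 0.0331, limma). The second Scd3 probe set was at 0.613-fold, without overlap (adjusted p = 0.0861, limma), and the summed intensity of the 6 sebaceous probe sets was 7739 to 8549 units in control and 6836 to 7974 units in caNrf2 skin. The part of any of these cell types in the difference of Ptgs2 was not tested.

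The genes whose values followed the brighter Ptgs2 probe set most closely were sought among 1251 probe sets. These lay at or above the median level of the array and had a range of at least 0.5 (log2). Pearson's r over the 6 arrays was 0.99 for Emb, which encodes the membrane protein embigin, and 0.98 for Pla2g7, which encodes the hydrolase of platelet-activating factor. Gclc and Gclm, the subunits of glutamate-cysteine ligase, followed at 0.98 and 0.97, and Nfe2l2, which encodes Nrf2 itself, at 0.97. Each of these 5 was highest in caNrf2 mouse 1. Pla2g7 measured 416.2, 420.3 and 444.4 units in control and 722, 663.8 and 555 units in caNrf2 skin, and Nfe2l2 657.1, 674.2 and 682.9 against 964, 860.1 and 864 units. With 6 points in 2 groups such values are easily reached, as 45 of the 1251 had an r over 0.9, so they are only a description.

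After each group's mean was subtracted, Npy, Jmy and Procr lay closest to Ptgs2, at 0.999, 0.993 and 0.992. They followed the order of the caNrf2 mice without a clear difference between the groups, with 107 of the 1251 over 0.9 on this measure. Of the other prostaglandin genes, Ptgr1 had an r of 0.89 over the 6 arrays and -0.35 within the groups. The 3 Ptges probe sets did not run alike, with -0.72 and -0.79 for the bright one, -0.47 and -0.94 for the second and -0.71 and 0.07 for the third. The dim second Hpgd probe set had 0.70 and 0.86.

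**Figure D5:**
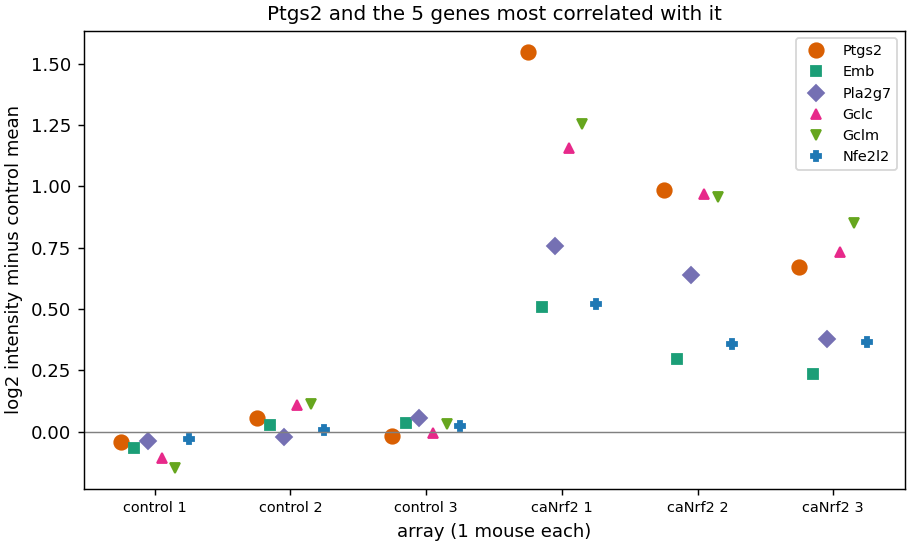
Log2 intensity minus the control mean of the brighter Ptgs2 probe set and of the 5 genes with the highest Pearson's r to it over 6 arrays, 1 column of symbols per mouse. All 6 genes are above 0.2 in every caNrf2 mouse and highest in mouse 1, and Ptgs2 is the highest of them in that mouse.

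As a check of the labels, Nqo1, a standard target of Nrf2, measured 50.83 to 73.52 units in control and 685.2 to 833 units in caNrf2 skin (12.2-fold, adjusted p = 3.38e-07, limma). Nfe2l2 differed by 0.41 ± 0.08 (adjusted p = 0.0812) on its brighter probe set, and its inhibitor Keap1 by 0.28 ± 0.08 and 0.23 ± 0.10 (limma, log2). The dim second Nfe2l2 probe set differed by 0.24 ± 0.14 with overlapping groups. Whether these probe sets also detect the caNrf2 transcript was not tested. Medians of the arrays lay between 80.9 and 82.12 units. The 3 prime to 5 prime difference of the Actb controls, a sign of RNA quality, was 0.49 to 0.50 in control and 0.44 to 0.54 in caNrf2 skin (log2). That of the Gapdh controls was -0.22, -0.20 and -0.18 in control and -0.23, -0.22 and -0.24 in caNrf2 skin, lower in every caNrf2 mouse than in any control by a small margin. The part of RNA quality in the differences was not tested.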

How the data were processed

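The deposited table gives 1 linear intensity per probe set and array, made by the authors with RMA, per the submitters' processing notes. RMA corrects background, normalises by quantiles and summarises probes, which compresses folds near background. Its version is not given in the sources used here. Per the labels' protocols, cRNA was made from 2 µg of total RNA.

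Here intensities were turned into log2, the 64 Affymetrix controls among 45101 probe sets were dropped, and the difference was fitted by limma 3.58.1 under R 4.3.3 (lmFit, then eBayes without trend, 4 residual degrees of freedom, Benjamini-Hochberg over all 45037 probe sets, threshold 0.05). Every probe set was kept. Replicates are separate mice of 1 litter, and 3 arrays per group limit the precision. The fit was tested on simulated data.

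The genes and lists were chosen with earlier results of these data known. Named are all probe sets of the prostaglandin genes, up to 3 genes with the smallest p and all called genes of each related list, Nfe2l2, Keap1 and Nqo1, and the genes most correlated with Ptgs2. Il1a, Il1b, Il6, Tnf and the cell markers given singly were picked later. Marker lists of suprabasal keratinocytes, sebaceous gland, fibroblasts, endothelium, Langerhans cells, adipocytes and muscle were also measured and had median differences of 0.05, -0.20, 0.00, -0.08, -0.09, -0.02 and 0.03 (log2).

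Equal replicate numbers do not pair the mice: the deviations of same-numbered arrays from their group means correlated at -0.15, -0.04 and 0.04. Alternatives were a replicate block, array weights, median centring, a filter on low values, robust eBayes, further quantile normalisation, an intensity trend, 1 probe set per gene and leaving out each array.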

Additional observations from a re-analysis of the deposited data

How the results depend on the processing

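Of the 14 alternatives, 6 left out 1 array each. The number of probe sets called was 108 as reported and 68 with 1 probe set for each gene, where fewer are tested. It ranged from 64 to 136 when single arrays were left out, with 69, 64 and 67 without control arrays 1, 2 and 3. Of the prostaglandin probe sets 2 were called as reported. This became 1 with the filter on low values, which removes Ptgs2, and 1 without control array 1, 2 or 3 or caNrf2 array 2, where Ptgs2 was lost (range over single arrays left out 1 to 2). Among the terminal synthases of other prostanoids 2 instead of 1 probe sets were called with an intensity trend, the added one being Ptgds. With a replicate block 97 probe sets were called, and no call of a prostaglandin gene or related list changed, as for the other alternatives not named. The Ptgr1 difference moved by more than the spread between mice in 1 case, to 0.79 with further quantile normalisation. Of 18 prostaglandin probe sets 10 kept their sign in every alternative, Ptgs2 and Ptgr1 among them, and the others lay close to 0. The 21 related genes were followed by 1 probe set each, and each of these kept its sign. Other probe sets of the same gene could differ in sign, as for Elavl1. Low signal limits what can be said of Ptger2 and of the second Ptgs2 probe set. The brighter Ptgs2 probe set also lay below the median level of all probe sets. The causes of the changes not named here were not tested.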
